A study of Mus musculus with 8 samples.

Results

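The baseline transcriptome of cultured adult mouse ventricular cardiomyocytes is described here from the 4 RNA sequencing libraries labelled as controls, out of 8 libraries in the study. These were all the libraries that the labels place in normal M199 growth medium, and no measured value was used to choose them. The cells came from hearts of C57BL/6 mice, given as C57BL/6J in the methods, and were kept for 24 hours in M199, a defined culture medium, with (-)-Blebbistatin, an insulin, transferrin and selenium supplement (ITS) and CD lipid, and RNA was taken at the end. (-)-Blebbistatin is a myosin inhibitor that keeps isolated adult cardiomyocytes from contracting, and the other group received it as well. The remaining 4 libraries, from cardiomyocytes given medium conditioned by CCR2+ cardiac macrophages of Ccr2gfp/+ mice after TAC surgery, were not compared with the controls. The labels number the control libraries 1 to 4 but do not say whether each came from a separate heart, so the SD between them may be partly technical. The labels give neither age nor sex, and the methods describe the mice of the study in general as males of about 8 to 12 weeks.

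Levels are in FPKM, fragments per kilobase of transcript relative to all mapped fragments of the library. The unit corrects for length and for library size. Gene levels and ranks are those of the deposited gene table unless transcript sums are named. For genes with several transcripts the gene level and the transcript sum differ, so ranks between genes depend on which is read. The deposited tables held 11367 genes and 21301 transcripts. Values are given per library in the order of replicates 1 to 4, or as mean ± SD over those 4 libraries. With 1 group there was nothing to test, and no p value is given.

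An adult ventricular cardiomyocyte is built around myofibrils, in which myosin thick filaments slide along actin thin filaments when calcium binds troponin. Calcium enters through L-type channels, triggers release from the sarcoplasmic reticulum through the ryanodine receptor and is pumped back by the ATPase SERCA2a. The ATP for this comes mainly from mitochondria that burn fatty acids. After birth the rodent ventricle changes from Myh7 to Myh6 myosin and from skeletal to cardiac actin, while natriuretic peptides and fetal isoforms return under stress.

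Markers of the labelled cell type were abundant. Myh6, the fast myosin heavy chain of the rodent heart, measured 539, 1065, 961 and 775 FPKM and ranked 14 among nuclear-encoded genes by mean level. Actc1, cardiac actin, measured 1275, 2604, 2441 and 3138 FPKM and ranked 3. Atp2a2, which encodes SERCA2, measured 556, 895, 846 and 697 FPKM and ranked 18. All 3 were lowest in replicate 1 and were far above the median gene of any library, which lay between 3.70 FPKM in replicate 4 and 5.48 FPKM in replicate 1. Ldb3, the Z-disc adaptor also called Cypher, measured 46.5, 59.6, 57.9 and 74.4 FPKM and ranked 623. Nppb, the gene for B-type natriuretic peptide, measured 102, 121, 90.5 and 314 FPKM, so that replicate 4 stood well above the other three.

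RNA of the mitochondrial genome took a large share of the signal. The 13 mitochondrially encoded protein genes made up 30.2%, 36.8%, 34.2% and 40.7% of the summed FPKM, a mean of 35.5% ± 4.41. The first 11 ranks by mean FPKM were all mitochondrial, and 12 of the 13 genes were among the 25 most abundant. The most abundant of all was mt-Co1, a catalytic subunit of cytochrome c oxidase (complex IV), with 13438, 19282, 16571 and 21447 FPKM. The complex I subunit gene mt-Nd1 measured 12135, 13638, 11858 and 16556 FPKM, and mt-Cytb of complex III measured 10439.8, 14358, 12439.9 and 16600.5 FPKM. For 12 of the 13 genes replicate 4 was the highest library, and for 10 of the 13 replicate 1 was the lowest. Over all genes with a mean of at least 1 FPKM the shares were 8.45% and 8.42%. mt-Nd6, a complex I subunit gene that lies on the strand opposite to the other 12, was the least abundant with 482, 440.3, 441 and 688 FPKM. mt-Atp8 and mt-Atp6 encode ATP synthase subunits and overlap, from chrM:7766-7969 and chrM:7927-8607 on the same strand, so fragments of the overlap could be counted for either and their levels of 7335 ± 977 FPKM and 1837 ± 477 FPKM are uncertain.

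Outside the mitochondrial genome the signal was concentrated in few genes. The 10 most abundant nuclear-encoded genes of this group held 6.45%, 8.32%, 7.11% and 8.83% of the nuclear-encoded FPKM, and the first 100 held 24.8% to 31.1%. It took 487, 369, 429 and 313 genes to reach 50% of that total, so replicate 1 was the most evenly spread library and replicate 4 the most concentrated. By mean level 8 nuclear-encoded genes passed 1000 FPKM, 383 passed 100 FPKM and 3330 passed 10 FPKM. Over all genes, 29.4% had a mean of at least 10 FPKM and 3.48% of at least 100 FPKM. The counts given below for gene lists have to be read against these shares. Genes at 10 FPKM or more numbered 3740, 3239, 3393 and 2968 in the single libraries. The most abundant genes were also short: main transcripts of the first 100 nuclear-encoded genes had a median length of 968 bases and 5 exons, against 1857 bases for ranks 101 to 1000, 2787 bases for ranks 1001 to 5000 and 3132.5 bases beyond.

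**Figure D1:**
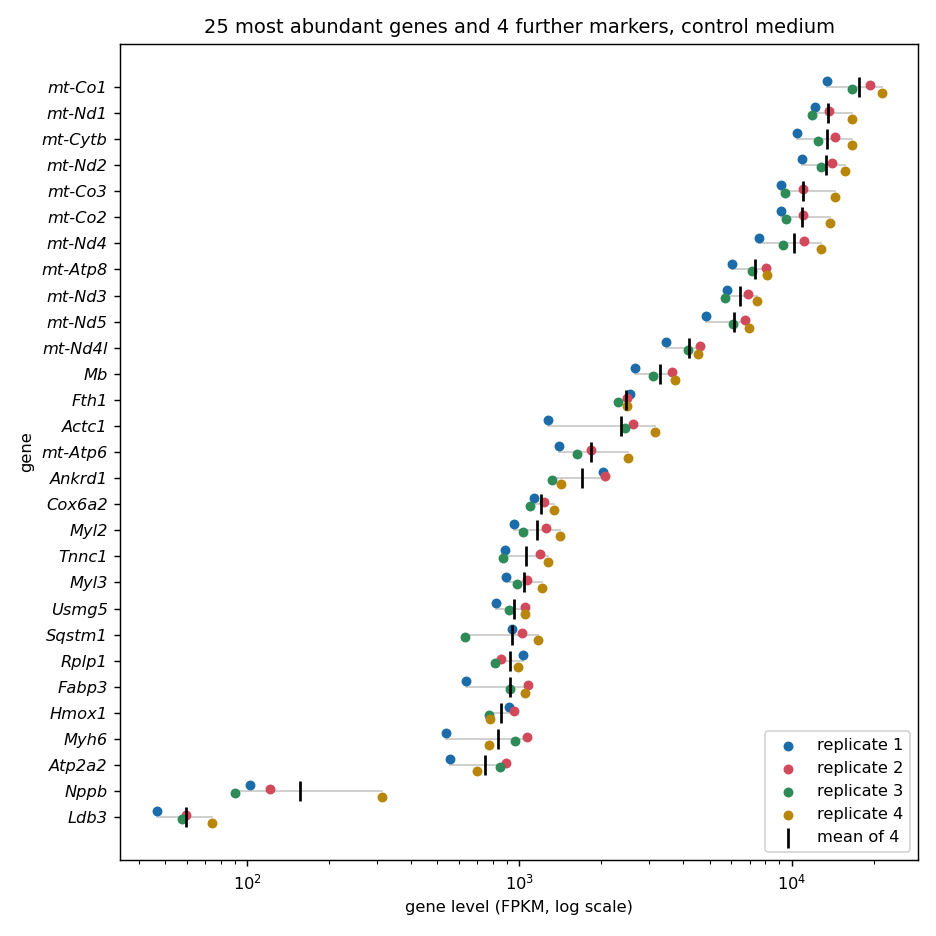
Level of the 25 most abundant genes and of the markers Myh6, Atp2a2, Nppb and Ldb3 in the 4 control libraries. The x axis is FPKM on a log scale, each colored point is 1 library and the black bar is the mean of 4. The mitochondrially encoded genes fill the top ranks, Fth1 varies least among the most abundant nuclear genes, and among the nuclear-encoded genes shown Actc1 and Nppb have the widest ranges.

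In the gene table the leading nuclear gene was Mb, which encodes the oxygen-binding protein myoglobin, at 2659, 3638, 3087 and 3733 FPKM (chr15:77015489-77050670, GRCm38). Fth1, the heavy chain of the iron store ferritin, followed with 2553, 2478, 2301 and 2483 FPKM and was nearly level between libraries, with an SD of 0.06 on the log2(FPKM + 1) scale. Ankrd1, a titin-binding stress-response protein of the sarcomere, measured 2018, 2053, 1319 and 1422 FPKM and ranked 4, with replicates 1 and 2 above replicates 3 and 4. Cox6a2, the heart and skeletal muscle form of a complex IV subunit, ranked 5 with 1199 ± 112 FPKM. The next ranks went to the ventricular regulatory light chain Myl2 with 1159 ± 206 FPKM, to cardiac troponin C Tnnc1 with 1054 ± 208 FPKM and to the ventricular essential light chain Myl3 with 1036 ± 137 FPKM. Usmg5, a small subunit of ATP synthase, averaged 958 ± 111 FPKM. Stress-response genes also belonged to the first ranks. Sqstm1, the autophagy receptor p62, measured 941, 1026, 629 and 1165 FPKM, with replicate 3 the lowest, and Hmox1, the heme-degrading enzyme heme oxygenase 1, measured 911, 954, 772 and 777 FPKM. Rplp1 of the ribosome (921 ± 103 FPKM) and the fatty acid binding protein Fabp3 (919.9 ± 199.8 FPKM) completed the 25.

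Among 14 measured genes of the thick filament and M-band, 12 had a mean of at least 10 FPKM and 6 of at least 100 FPKM. Their summed level was 2943, 4100.1, 3596 and 4015 FPKM. Mybpc3, cardiac myosin binding protein C, measured 195, 234, 221 and 234 FPKM. Titin, the giant protein that spans the sarcomere, reached only 15.4 ± 4.10 FPKM, a value per kilobase of a transcript that is very long. Of the 13 measured thin filament genes 11 passed 10 FPKM, and their summed level of 4423, 6572, 5703 and 7264 FPKM was lowest in replicate 1 and highest in replicate 4. After Actc1 and Tnnc1 came tropomyosin Tpm1 with 571, 739, 629 and 675 FPKM, troponin I Tnni3 with 586, 673, 549 and 708 FPKM and troponin T Tnnt2 with 517, 723, 544 and 609 FPKM. Tcap, the telethonin that caps titin, averaged 248 ± 86.7 FPKM. Of 19 genes of the Z-disc and costamere 15 passed 10 FPKM. Desmin, the muscle intermediate filament (Des), measured 436, 491, 511 and 633 FPKM, its small heat shock chaperone Cryab 466, 443, 478 and 669 FPKM and the Z-disc cross-linker Actn2 176, 228, 216 and 195 FPKM. Flnc, the filamin of striated muscle, measured 104, 102, 139.7 and 119 FPKM, and the mechanosensor Csrp3 measured 109.5, 100.4, 149 and 163 FPKM.

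In several families a cardiac or ventricular gene held nearly all of the family total, while in others its share was lower. Myh6 made up 97.6% ± 0.117 of Myh6 and Myh7 together, with Myh7, the slow myosin of the fetal rodent ventricle, at 14.2, 26.9, 22.6 and 18.8 FPKM. That share moved by less than 1 percentage point between libraries although Myh6 itself ranged from 539 to 1065 FPKM. Actc1 made up 94.1% ± 1.46 of cardiac and skeletal actin. Skeletal actin, Acta1, measured 84.5, 101, 172 and 236 FPKM, so replicates 3 and 4 were above replicates 1 and 2. Myl3 held 99.7% ± 0.239 against its atrial relative Myl4, and Myl2 held 98.8% ± 1.36 against the atrial Myl7. Tnnt2 made up 98.8% ± 0.219 of Tnnt2 and the slow skeletal Tnnt1, and Casq2, the calcium buffer of the cardiac sarcoplasmic reticulum, 96.2% ± 1.54 of both calsequestrins. Tpm1 was less exclusive in the gene table, with 86.7% ± 5.81 of 4 tropomyosin genes, but held 96.2% ± 1.90 by transcript sums. Tpm4, a cytoskeletal tropomyosin of many cell types, measured 121, 57.5, 82.8 and 48.2 FPKM and was highest in replicate 1. The relatives Tnni1, Tnni2, Tnnt3, Tnnc2, Atp2a1, Atp2a3, Ryr1 and Ryr3 had no entry under these symbols in the gene table, which had been filtered by level.

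Sarcomere genes were looked at for the CArG box, a 10-base motif bound by serum response factor (SRF), in promoters from RefSeq (GRCm38.p6, 250 bases before to 50 after a gene start). SRF is a transcription factor of muscle and immediate-early genes, and Srf itself measured 17.3, 20.7, 21.7 and 21.6 FPKM. The motif was searched over the whole window, and its pattern is its own reverse complement, so a match on one strand is a match on the other. It was present in 9 of 49 promoters (18.4%) of thick filament, thin filament and Z-disc genes, belonging to 8 of the 37 such genes with a promoter in the table, namely Acta1, Actc1, Ldb3, Myl3, Myl7, Myom1, Nebl and Vcl. Over all listed genes it was present in 153 of 11308 promoters (1.35%), and among the 100 most abundant nuclear-encoded genes in 2 of 89 (2.25%). It was found in 0 of 15 promoters of calcium handling genes, 0 of 48 of nuclear-encoded respiratory chain genes and 0 of 36 of cytosolic ribosomal protein genes. The letters TATAAA, searched on both strands of the bases before the start, were in 10.2% of the sarcomere promoters and 6.38% of all. A match is only a string of letters, and no binding was measured. The 100 bases before the start of 5 of these genes are shown to let the motif be seen beside the levels above, with the CArG box in capitals, 5′ to 3′ on the strand of the gene.
Actc1, chr2:114052876-114052975, minus strand: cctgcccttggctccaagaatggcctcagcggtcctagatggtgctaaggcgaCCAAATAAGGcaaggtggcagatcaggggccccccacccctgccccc
Acta1, chr8:123894776-123894875, minus strand: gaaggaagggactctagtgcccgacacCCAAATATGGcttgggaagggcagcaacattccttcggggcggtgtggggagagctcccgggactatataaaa
Myl3, chr9:110763578-110763677, plus strand: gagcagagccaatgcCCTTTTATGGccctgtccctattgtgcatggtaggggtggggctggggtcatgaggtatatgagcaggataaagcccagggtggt
Myl7, chr11:5898783-5898882, minus strand: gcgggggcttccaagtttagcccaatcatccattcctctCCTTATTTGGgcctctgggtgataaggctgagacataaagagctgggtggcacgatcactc
Ldb3, chr14:34588682-34588781, minus strand: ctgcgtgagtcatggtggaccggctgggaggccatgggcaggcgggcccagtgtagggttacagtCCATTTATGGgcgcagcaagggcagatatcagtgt
The motif begins 47 bases before the start in Actc1, 73 in Acta1, 85 in Myl3, 61 in Myl7 and 35 in Ldb3. Among these genes the level ranged from 14.9 FPKM on average in Myl7 to 2365 FPKM in Actc1.

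Of 17 measured calcium handling genes 10 had a mean of at least 10 FPKM. Their sum was 1103, 1679, 1525 and 1411 FPKM, of which Atp2a2 was the largest part in every library. Hrc, a calcium-binding protein of the reticulum lumen, measured 135, 233, 188 and 189 FPKM, and Pln, the SERCA inhibitor phospholamban, measured 81.4, 119, 113 and 122 FPKM. The ryanodine receptor Ryr2 measured 19.3, 31.6, 28.9 and 16.3 FPKM and the sodium-calcium exchanger Slc8a1 28.7, 46.1, 53.8 and 37.5 FPKM. Both were higher in replicates 2 and 3 than in replicates 1 and 4. The L-type channel Cacna1c was low, with 3.26, 3.36, 3.57 and 1.42 FPKM, and lowest in replicate 4.

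Of 16 measured ion channel and pump genes 5 had a mean of at least 10 FPKM, against 29.4% of all genes. Atp1b1, a beta subunit of the sodium-potassium ATPase, measured 91.2, 84.8, 91.3 and 114 FPKM and was highest in replicate 4. Fxyd1, the pump regulator phospholemman, measured 48.8, 59.2, 44.7 and 63.0 FPKM. No potassium channel gene of the list averaged 10 FPKM, Kcnj2 being at 7.28 ± 2.20 FPKM. At the intercalated disc, where cells join end to end, the muscle-specific Nrap (179 ± 21.6 FPKM) and alpha-catenin Ctnna1 (159 ± 25.7 FPKM) were above desmoplakin Dsp (75.5 ± 13.2 FPKM) and N-cadherin Cdh2 (54.8 ± 4.62 FPKM). The gap junction gene Gja1, connexin 43, measured 15.9, 41.1, 12.9 and 10.7 FPKM, with replicate 2 well above the others. It still led its family in each library, with Gjc1 at 3.59 ± 0.749 FPKM and Gja5 at 0.945 ± 0.384 FPKM.

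All 57 measured nuclear-encoded respiratory chain genes had a mean of at least 10 FPKM, and 47 had at least 100 FPKM, with a median of 221 FPKM. Their sum was 14128, 17107, 15189.9 and 17096 FPKM, or 6.45% to 8.28% of the nuclear-encoded total. Cox6b1 of complex IV averaged 729 ± 84.9 FPKM, and the ATP synthase subunits Atp5b and Atp5a1 averaged 703 ± 57.3 FPKM and 684 ± 120.0 FPKM. The muscle isoforms of complex IV subunits led their pairs: Cox6a2 held 93.8% ± 1.73 of both COX6A genes, Cox8b 88.7% ± 4.18 of both COX8 genes and Cox7a1 only 70.0% ± 2.31 of both COX7A genes. The ubiquitous partners Cox6a1, with 108, 72.0, 66.2 and 66.6 FPKM, and Cox8a, with 115, 72.0, 70.6 and 73.8 FPKM, were each highest in replicate 1, whereas Cox7a2 measured 256, 266, 259 and 317 FPKM and was highest in replicate 4.

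In fatty acid uptake and oxidation, 25 of 28 genes passed 10 FPKM and the sum was 2925, 4169.5, 3629.9 and 3593 FPKM. Replicate 2 was the highest library for 22 of the 28, against 11.3% of all genes with a mean of at least 1 FPKM. Fabp3 led, followed by the dehydrogenase Acadl (347 ± 43.0 FPKM), the thiolase Acaa2 (278 ± 52.8 FPKM) and lipoprotein lipase Lpl (220.4 ± 33.0 FPKM). The muscle form of the gatekeeper of mitochondrial fatty acid import, Cpt1b, made up 93.5% ± 2.71 of Cpt1b and Cpt1a. Of 21 genes of glycolysis and glucose use 20 passed 10 FPKM, led by aldolase Aldoa (437 ± 47.4 FPKM). The muscle enolase Eno3 held 89.8% ± 3.82 of Eno3 and Eno1, the muscle Pgam2 83.2% ± 3.40 of both mutases, and Ldhb, the heart form of lactate dehydrogenase, 74.5% ± 2.44 of Ldhb and Ldha. Glucose transporters ran the other way. Slc2a1, the widespread GLUT1, measured 31.7, 37.4, 35.5 and 29.0 FPKM, above the insulin-regulated muscle transporter Slc2a4 (GLUT4) with 17.9, 22.0, 20.1 and 16.6 FPKM in every library of the gene table, so that Slc2a4 held 36.4% ± 0.463 of the pair. By transcript sums the order turned in replicate 4, where Slc2a4 held 50.4%. For energy transfer, the mitochondrial creatine kinase Ckmt2 (739.7 ± 55.3 FPKM) exceeded the cytosolic muscle form Ckm (293 ± 56.0 FPKM), and the ATP carrier Slc25a4 (828 ± 128 FPKM) held 77.6% ± 3.09 of its pair with Slc25a5.

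All 45 cytosolic ribosomal protein genes passed 10 FPKM, with a median of 202 FPKM. Replicates 1 and 4 were the highest library for 24 and 21 of them, and replicate 3 the lowest for 39. Over all genes with a mean of at least 1 FPKM, 63.8% were highest in replicate 1 and 8.45% in replicate 4. In replicate 3, 11.9% of those genes were lowest. After median-of-ratios scaling the ribosomal list was below its mean in replicate 1. In the heat shock and stress list 26 of 28 genes passed 10 FPKM, and their sum was 5429, 5481, 4809 and 5526 FPKM, lowest in replicate 3. The chaperone Hsp90ab1 averaged 678 ± 17.0 FPKM, the muscle small heat shock protein Hspb7 474 ± 19.2 FPKM and the stress transcription factor Atf4 419 ± 64.4 FPKM. Gdf15, a cytokine released under cell stress, measured 278, 229, 178 and 159.7 FPKM. Of 21 immediate-early genes 14 passed 10 FPKM. Ier3 (201 ± 31.1 FPKM), Atf3 (85.7 ± 24.1 FPKM) and Klf6 (58.6 ± 6.82 FPKM) led, while Fos measured 4.78, 7.94, 10.1 and 11.3 FPKM and Egr1 9.79, 8.16, 7.01 and 8.61 FPKM and were below that level on average. For 13 of the 21 replicate 1 was the lowest library, against 8.42% of all genes with a mean of at least 1 FPKM.

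The hypoxia-inducible list had 10 of 12 genes at 10 FPKM or more, led by Ldha (128 ± 11.3 FPKM) and hexokinase Hk2 (74.2 ± 5.29 FPKM). Its sum of 387, 406, 383 and 408 FPKM was the narrowest of all lists, with the highest library only 1.07 times the lowest. In muscle protein turnover all 12 genes passed 10 FPKM. After Sqstm1 came the ubiquitin ligase Trim54 (301 ± 24.4 FPKM), the autophagosome protein Map1lc3a (227 ± 16.4 FPKM) and Trim63 (83.6 ± 15.4 FPKM), the atrophy ligase MuRF1. Of 18 cardiac transcription factors 5 passed 10 FPKM, against 29.4% of all genes. Nkx2-5, a founding factor of heart development, led with 57.6, 69.0, 71.1 and 78.3 FPKM, followed by Esrra (31.1 ± 2.63 FPKM), a regulator of mitochondrial genes. Gata4 measured 29.0, 7.67, 16.5 and 12.7 FPKM and was highest in replicate 1. Cell cycle genes were low, with 2 of 14 above 10 FPKM, against 29.4% of all genes. Pcna, which also serves DNA repair, averaged 43.5 ± 2.15 FPKM and the cyclin Ccnd2 24.6 ± 3.51 FPKM, while the proliferation markers Mki67 and Top2a averaged 0.652 ± 0.447 FPKM and 0.703 ± 0.547 FPKM.

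Both natriuretic peptide genes were among the 20 genes of widest spread. Nppa, atrial natriuretic peptide, measured 95.7, 204, 96.2 and 266 FPKM (chr4:148000722-148002079). Its neighbor Nppb lies at chr4:147985788-147987205, and in both genes replicate 4 was the highest library. Nppa was also raised in replicate 2 relative to replicates 1 and 3, and Nppb was close to them there, so the share of Nppa in the pair moved between 45.9% and 62.7%. Xirp2, a muscle actin-binding protein of the costamere, measured 96.7, 107, 153 and 169 FPKM and shared with Acta1 its higher levels in replicates 3 and 4. Rcan1, a feedback inhibitor of calcineurin, was level by comparison with 107, 110.3, 88.6 and 99.5 FPKM. Isg15, the ubiquitin-like interferon response gene on which the study centers, was low in control medium with 2.81, 1.63, 6.42 and 1.13 FPKM and was named here after its values were seen.

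Ranks depended on whether the gene or the transcript table was read. A gene's FPKM in the deposited gene table was not the sum of its transcripts. This was checked in replicate 1 for 1599 genes with several transcripts, a mean of at least 10 FPKM and exons that could be matched to GENCODE M21. The gene value lay within 5% of the fragments of all listed transcripts divided by the merged exon length in 72.9% of them. It lay within 5% of the plain sum in 5.75%. The median gene value in that library was 0.698 of the sum, so genes with many overlapping isoforms rank lower in the gene table. Tnnt2 is the clearest case. It ranked 35 among nuclear-encoded genes with 598 FPKM, but its 12 transcripts summed to 4259 FPKM, which is rank 1. Tpm1, with 16 transcripts, moved from rank 30 to 3 (654 and 3444 FPKM), and Atp5b from 24 to 9 (703 and 1518 FPKM). Fth1 has 1 listed transcript and the same level in both tables (2454 FPKM), and fell from rank 2 to 6. The share of Eno3 in the enolase pair was 89.8% in the gene table and 76.5% by transcript sums, and that of Slc2a4 in its pair was 36.4% and 44.9%.

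**Figure D2:**
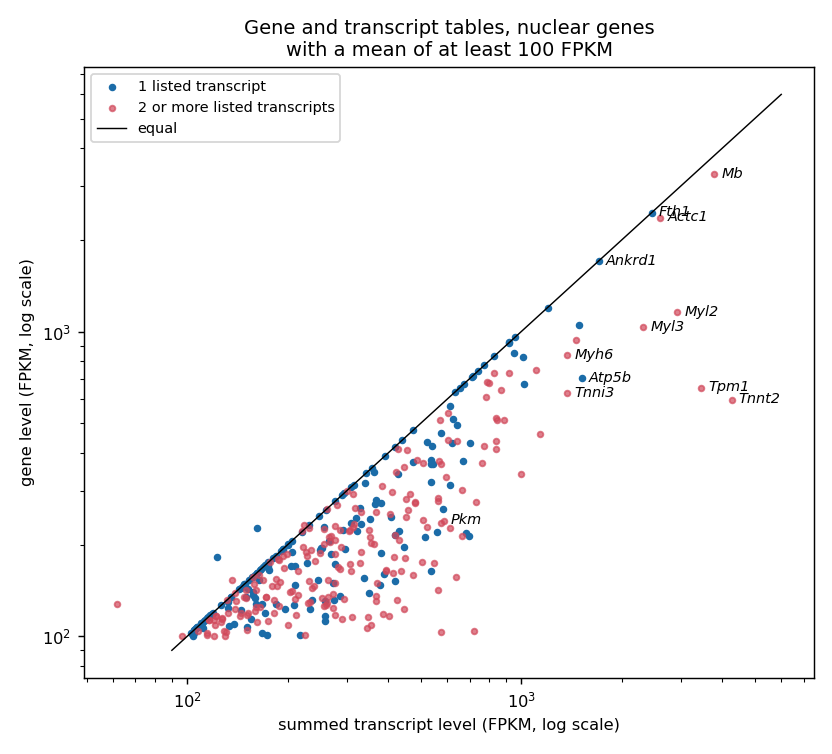
Mean FPKM in the gene table (y axis, log scale) against the sum of the gene's listed transcripts (x axis, log scale) for nuclear-encoded genes with a mean of at least 100 FPKM over the 4 control libraries. Blue points have 1 listed transcript and red points 2 or more, and the line marks equal values. Among genes whose transcripts sum to at least 1000 FPKM, Tnnt2 and Tpm1 lie farthest to the right of the line.

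Most well-expressed genes had a clear main transcript. Of 3343 genes with a mean of at least 10 FPKM, 1539 (46.0%) had 1 listed transcript. In the other 1804 the most abundant transcript held a median of 81.3% of the summed transcript level, at least 90% in 617 genes and under 50% in 198. The leading transcript was not the same in all 4 libraries for 403 of the 1804 genes (22.3%), and the share of the main transcript had a median SD of 4.48 percentage points. Atp2a2 was dominated by Atp2a2-202, with 95.4% ± 2.12 percentage points, and Actc1 by Actc1-201, with 99.7%. Mb-203 held 82.9% ± 2.18 of Mb, Myl3-201 88.9% ± 0.93 of Myl3, Tpm1-205 83.2% ± 0.778 of Tpm1 and Myl2-201 62.9% ± 6.92 of Myl2. Ldb3-203, an 8-exon transcript of 1586 bases, held 65.4% ± 3.39 of Ldb3, ahead of the 15-exon Ldb3-205 of 4981 bases with 12.2%. In titin the 45-exon Ttn-202 held 50.3%, and Ttn-204, with 312 exons, 23.8%.

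In troponin T no transcript reached 50%. Tnnt2-206 measured 987, 1028, 1074 and 1391 FPKM, Tnnt2-207 958, 1252, 940.1 and 949.6 FPKM and Tnnt2-211 692, 1838, 727 and 752 FPKM, which gave shares of 26.3%, 24.1% and 23.5%. The third was the highest of them in replicate 2 and the lowest in the other libraries. Myh6 was also divided, between the full-length Myh6-201 (36.5%), the 542-base Myh6-207 (35.4%) and the full-length Myh6-205 (27.9%). Myh6-207 lies within the span of both full-length forms, so fragments there could be assigned to any of them and its estimate is uncertain. The shares are of levels per kilobase, in which a short transcript counts for more than its part of the fragments. Among genes with a mean of at least 50 FPKM, those with the most even pair of leading transcripts included Atp5g3, Cox6c and Rps28, in which both transcripts were high in every library. Atp5g3-201 measured 405, 488, 511 and 598 FPKM and Atp5g3-202 496, 552, 462 and 491 FPKM.

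In other genes the even mean hid estimates that changed places between libraries. Whether the transcripts themselves switched was not tested. Mybpc3-201 measured 107, 155, 149 and 0 FPKM and Mybpc3-203 66.4, 58.7, 60.5 and 195 FPKM, so the former was listed at 0 in replicate 4 while the gene level was within 195 to 234 FPKM. Sparc, a matrix-binding glycoprotein, had Sparc-202 at 169.7, 91.5, 4.74 and 5.17 FPKM and Sparc-201 at 13.0, 7.33, 151 and 82.0 FPKM. The estimate of Sparc-202 was thus the higher in replicates 1 and 2 and that of Sparc-201 in replicates 3 and 4, although the gene table gave 111, 61.7, 104 and 56.2 FPKM. Set-202 measured 64.2, 53.2, 58.0 and 5.22 FPKM and Set-201 31.7, 25.5, 27.9 and 85.2 FPKM, again with replicate 4 apart. Ampd3-201 measured 16.1, 46.5, 46.9 and 41.5 FPKM and Ampd3-208 73.1, 37.3, 38.0 and 0 FPKM, with replicate 1 and replicate 4 at opposite ends. Hnrnpf-201 was at 8.60, 66.6, 66.2 and 8.30 FPKM and Cnbp-203 at 99.1, 234, 99.7 and 127 FPKM. In 17 genes the main transcript was listed at 0 in at least 1 library.

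**Figure D3:**
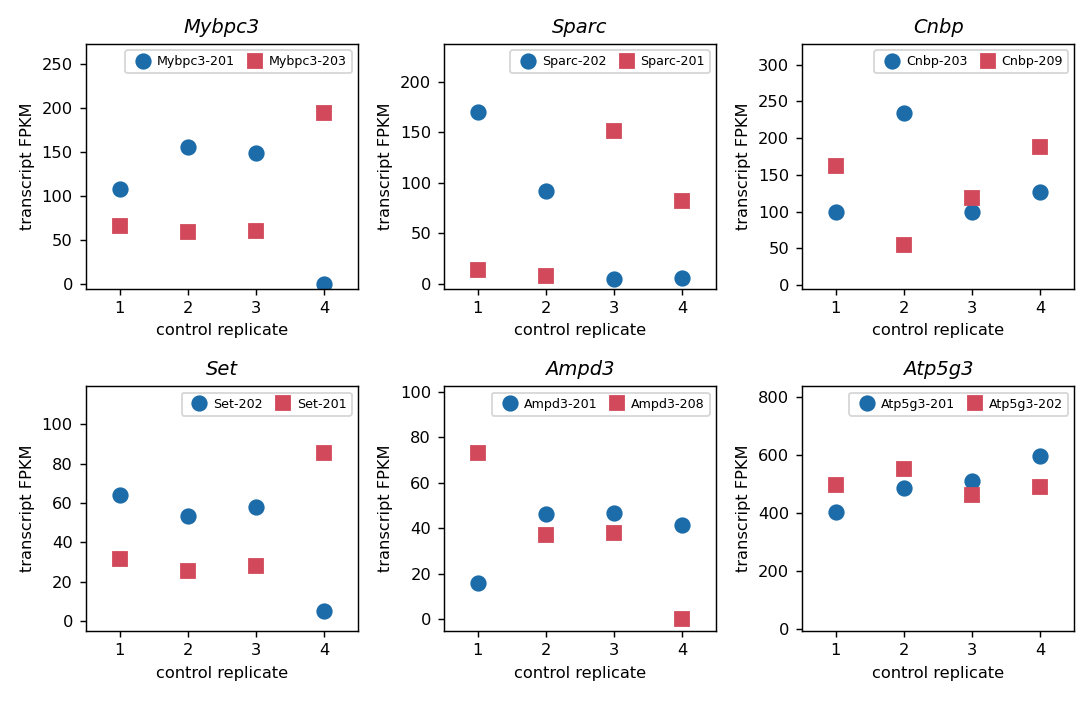
FPKM of the pair of leading transcripts of Mybpc3, Sparc, Cnbp, Set, Ampd3 and Atp5g3 in each control library (x axis, replicates 1 to 4). Blue circles are the transcript with the higher mean and red squares the other. Mybpc3 and Set change places in replicate 4 and Sparc between replicates 2 and 3, whereas both Atp5g3 transcripts stay between 405 and 598 FPKM.

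Inside the coding sequence, 3 of these pairs differ by 3 bases, which are shown because so few bases separate forms whose estimates change places. Sequence is from the GRCm38 genome, 5′ to 3′ on the strand of the gene with up to 20 bases on each side, and the capitals are the bases that only the named transcript holds.
Mybpc3-203 against Mybpc3-201, chr2:91122636-91122638: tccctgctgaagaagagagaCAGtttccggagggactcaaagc
Sparc-201 against Sparc-202, chr11:55407277-55407279: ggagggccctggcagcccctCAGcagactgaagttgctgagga
Cnbp-209 against Cnbp-203, chr6:87845674-87845676: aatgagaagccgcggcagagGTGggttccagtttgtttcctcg
In Tnnt2 the 2 most abundant forms differ by a longer insert in Tnnt2-207 and a shorter one in Tnnt2-206, both in whole codons, as listed next.
Tnnt2-207 against Tnnt2-206, chr1:135843785-135843814: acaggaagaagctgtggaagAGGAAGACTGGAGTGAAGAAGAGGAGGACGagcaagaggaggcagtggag
Tnnt2-206 against Tnnt2-207, chr1:135850379-135850387: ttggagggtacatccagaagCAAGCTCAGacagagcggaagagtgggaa
The Mybpc3, Sparc and Cnbp pairs also differ at a transcript end, whereas both Tnnt2 transcripts have the same ends.

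The 4 libraries were alike over all genes but not equally so. Pearson correlations of log2(FPKM + 1) across 9756 genes with a mean of at least 1 FPKM ran from 0.968 for replicates 1 and 4 to 0.984 for replicates 2 and 3. These describe genes measured in the same libraries and are not independent observations. In a principal component analysis of the same values the first component carried 64.3% of the variance and set replicate 1 against replicate 4, with weights of 0.70 and -0.67, while replicates 2 (-0.18) and 3 (0.15) lay between. The median SD between libraries was 0.23 on the log2(FPKM + 1) scale. The median fell from 0.25 for genes of 1 to 5 FPKM to 0.17 for genes above 100 FPKM. The 1 that is added before the log narrows the SD of low levels most, so the spread of low genes is understated. With 0.1 added in its place the median SD over the 9756 genes was 0.27. An SD of at least 0.5 was found in 626 genes (6.42%), of which 420 were highest in replicate 1 and 365 lowest in replicate 4. A general offset ran the same way, since over all 9756 genes 63.8% were highest in replicate 1 and 61.0% lowest in replicate 4. After median-of-ratios scaling those shares were 27.2% and 29.0%.

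The widest spread among genes with a mean of at least 20 FPKM was that of Lyz2, the lysozyme of macrophages and neutrophils, with 128, 13.4, 63.5 and 66.7 FPKM. The lysosomal protease Ctss (35.6, 6.41, 28.7 and 33.5 FPKM) had replicate 2 as its lowest library as well. Plin2, the coat protein of lipid droplets, measured 78.3, 19.8, 17.8 and 9.34 FPKM and was highest in replicate 1. The metallothioneins Mt1 and Mt2, which bind zinc and copper, measured 103, 63.5, 36.7 and 31.9 FPKM and 127, 71.5, 24.3 and 23.0 FPKM. Both genes ran in the same order across libraries. Txnip, an inhibitor of thioredoxin, measured 49.1, 18.6, 22.6 and 9.39 FPKM, the same pattern of a high replicate 1 and a low replicate 4. Lowest in replicate 1 and highest in replicate 4 were the inducible Hsp70 gene Hspa1b with 19.5, 30.5, 35.0 and 83.1 FPKM and the nicotinamide riboside kinase Nmrk2 with 18.9, 54.2, 46.1 and 74.7 FPKM. Hspa1b has a near-identical copy, Hspa1a, so reads may be split between them, and Hspa1a measured 14.1, 16.9, 20.9 and 40.4 FPKM.

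Single libraries accounted for other wide spreads. Gem, a small GTP-binding protein that restrains L-type calcium channels, was low only in replicate 1 (8.89, 38.1, 43.0 and 42.3 FPKM), as was the nuclear import factor Kpna1 (7.82, 27.4, 26.7 and 25.8 FPKM). The small heat shock protein Hspb6 was high only in replicate 2 (91.0, 316, 102 and 102 FPKM). Pdia4 of the endoplasmic reticulum measured 31.25, 11.95, 58.21 and 18.06 FPKM, with replicate 3 the highest, and the antioxidant enzyme Gpx1 measured 61.5, 41.6, 11.9 and 47.2 FPKM, with replicate 3 the lowest. Tmem70, an assembly factor of ATP synthase, fell into pairs with 14.5, 15.6, 48.8 and 43.4 FPKM. The collagen chaperone Serpinh1 measured 138, 42.0, 113 and 92.6 FPKM. Of the 20 genes of widest spread, which also include Krcc1, Ly6a, Gja1, Nppa and Nppb, 9 were highest in replicate 1, 4 in replicate 2, 3 in replicate 3 and 4 in replicate 4. Over all genes with a mean of at least 1 FPKM the shares were 63.8%, 11.3%, 16.5% and 8.45%.

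At the other end were genes whose 4 libraries hardly differed. The glycolytic enzyme Pkm measured 243, 243, 237 and 236 FPKM, and cytochrome c1 of complex III, Cyc1, measured 334, 349, 343 and 344 FPKM. The mitochondrial peroxidase Prdx3 measured 146, 147, 142 and 143 FPKM. Their SDs on the log2 scale were 0.02, 0.03 and 0.02. The outer-membrane channel Vdac3 (73.8, 73.1, 72.5 and 74.0 FPKM) and the translation helicase Eif4a2 (40.8, 41.0, 40.3 and 40.2 FPKM) were as steady or steadier. Lsm12, Dhx15, Cltb and Actr3, with means of 29.2, 20.3, 28.1 and 51.4 FPKM, were also among the 10 steadiest genes. These were chosen for their small SD, so their steadiness is a description of these libraries.

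**Figure D4:**
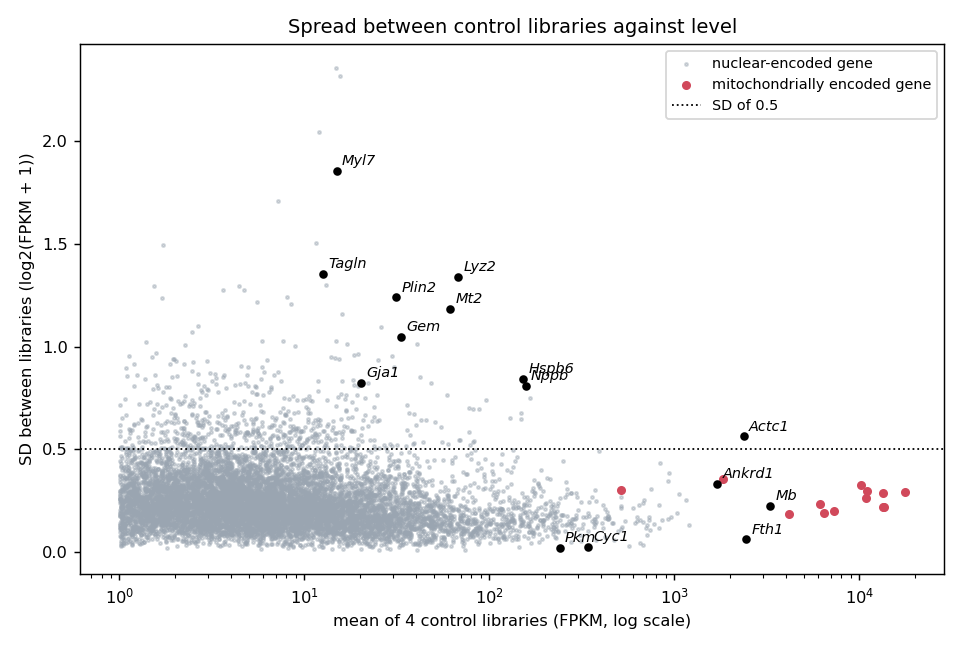
SD between the 4 control libraries of log2(FPKM + 1) (y axis) against the mean FPKM (x axis, log scale) for the 9756 genes with a mean of at least 1 FPKM. Red points are mitochondrially encoded genes, labelled black points are genes named in the text and the dotted line marks an SD of 0.5. Actc1 lies above the line among the most abundant genes, and Fth1, Pkm and Cyc1 near 0.

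Gene groups were also compared between libraries. Each group is given by the median deviation of its genes from their mean over the 4 libraries, on the log2(FPKM + 1) scale. For all 9756 genes that median was 0.20, -0.03, 0.04 and -0.19 in replicates 1 to 4, against which the groups have to be read. Thick filament genes stood at -0.24, 0.18, 0.02 and 0.04, and thin filament genes at -0.20, 0.18, -0.09 and 0.05. Nuclear-encoded respiratory chain genes stood at -0.14, 0.11, -0.07 and 0.13, and mitochondrially encoded genes at -0.27, 0.10, -0.11 and 0.30. Replicate 1 was thus below the others in contractile and respiratory genes while above them in the median gene, and it remained below after median-of-ratios scaling (-0.48, -0.45, -0.39 and -0.53 for these 4 lists). Calcium handling, at -0.13, 0.18, 0.07 and -0.08, was low in replicates 1 and 4, but in replicate 4 the sign turned with that scaling (0.17). Intercalated disc genes and cardiac transcription factors were lowest in replicate 4, at -0.25 and -0.28, and close to level after scaling, at -0.07 and -0.06. Cytosolic ribosomal protein genes stood at 0.12, -0.10, -0.17 and 0.13, and in replicate 1 that sign also turned, to -0.13.

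Markers of other cells of the heart were present and differed between the libraries. In bulk RNA, fewer cells of a type and less RNA per cell cannot be told apart. All 18 endothelial markers were measured, and their summed level was 352, 245, 315 and 158 FPKM. Endoglin (Eng) measured 63.5, 35.1, 50.5 and 26.8 FPKM, VE-cadherin (Cdh5) 49.7, 37.9, 49.8 and 24.9 FPKM and Pecam1 30.9, 22.2, 28.7 and 16.1 FPKM. In all, 14 of the 18 were highest in replicate 1 and 15 were lowest in replicate 4, where 63.8% and 61.0% of all genes were. The median deviation of the list was 0.40, -0.06, 0.23 and -0.56, and after median-of-ratios scaling replicate 3 (0.19) was slightly above replicate 1 (0.17) while replicate 4 stayed lowest (-0.37). The 16 fibroblast markers summed to 160.4, 65.9, 110.5 and 85.1 FPKM, of which vimentin (Vim) was the most abundant member with 72.9, 34.8, 51.1 and 41.9 FPKM, while the collagen gene Col1a1 measured 10.2, 2.19, 4.03 and 2.54 FPKM and Pdgfra 7.13, 2.05, 3.17 and 3.07 FPKM. Here 14 of the 16 were lowest in replicate 2, where 18.7% of all genes were. The 12 measured macrophage and leukocyte markers summed to 178, 24.97, 102 and 108 FPKM, and all 12 were lowest in replicate 2. Lyz2 was most of that sum, and 8 further leukocyte genes of the list, Ptprc, Ccr2 and Cx3cr1 among them, had no entry under their symbols. Cd68, a lysosomal protein of macrophages, measured 21.0, 5.56, 16.1 and 21.0 FPKM, the receptor Csf1r 3.87, 1.30, 2.49 and 1.83 FPKM and the surface marker Adgre1 (F4/80) 2.48, 0.0887, 1.55 and 1.55 FPKM.

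The 11 mural markers, of smooth muscle and pericytes, summed to 175, 121, 191 and 145 FPKM. Of the 11, 8 were highest in replicate 1, where 63.8% of all genes were, and 3 in replicate 3. Acta2, which fetal and dedifferentiating cardiomyocytes also express, was the larger part with 90.5, 93.6, 141 and 117 FPKM and was highest in replicate 3. Tagln measured 35.5, 3.45, 5.63 and 5.69 FPKM, the smooth muscle myosin Myh11 4.56, 0.364, 1.10 and 0.316 FPKM and the pericyte receptor Pdgfrb 13.2, 6.06, 11.4 and 7.92 FPKM, each highest in replicate 1. Of the epicardial, neural, red cell and fat list 5 of 15 genes were measured, at a sum of 7.02, 1.48, 3.58 and 1.26 FPKM, the highest being Cfd with 1.11 ± 0.584 FPKM. Each of these other-cell lists was a small part of the nuclear-encoded FPKM, at most 0.161% in any library. Skeletal muscle markers were represented by Ckm, Acta1, Myl1 (10.3 ± 1.23 FPKM) and Casq1 (4.54 ± 1.20 FPKM), of which Ckm and Acta1 are also expressed in heart. The part of the other cells in the differences between libraries was not tested.

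Atrial genes varied widely. Myl7, the atrial regulatory light chain, measured 4.88, 40.6, 1.02 and 13.2 FPKM, with replicate 2 the highest and replicate 3 the lowest, and Myl4, the atrial essential light chain, measured 1.80, 7.22, 1.47 and 3.13 FPKM. Sln, sarcolipin, an atrial SERCA inhibitor, measured 0.446, 3.96, 0.118 and 1.45 FPKM, and Mybphl, an atrial myosin binding protein, 0.116, 1.70, 0.183 and 0.488 FPKM. These 4 ranked the libraries with replicate 2 first and replicate 4 second, but were picked for that after their values were seen. Of the 10 measured genes of the atrial and conduction list, 4 were highest in replicate 1, 4 in replicate 2 and 2 in replicate 4. Over all genes with a mean of at least 1 FPKM the shares were 63.8%, 11.3% and 8.45%. Nppa was most of the list sum of 114, 262, 108 and 289 FPKM, and both were highest in replicate 4. In replicate 2, Myl2 still exceeded Myl7 by a wide margin, at 1249.5 and 40.6 FPKM. Connexin 43 and Hspb6 were highest in replicate 2 too, but are not of the atrial and conduction list and were taken from the genes of widest spread. The conduction system channel Hcn4 measured 0.69, 0.805, 0.709 and 0.888 FPKM and the factor Tbx3 3.68, 2.48, 3.29 and 1.12 FPKM. Neither Hcn4 nor Tbx3 was highest in replicate 2. The part of atrial tissue in replicate 2 was not tested.

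**Figure D5:**
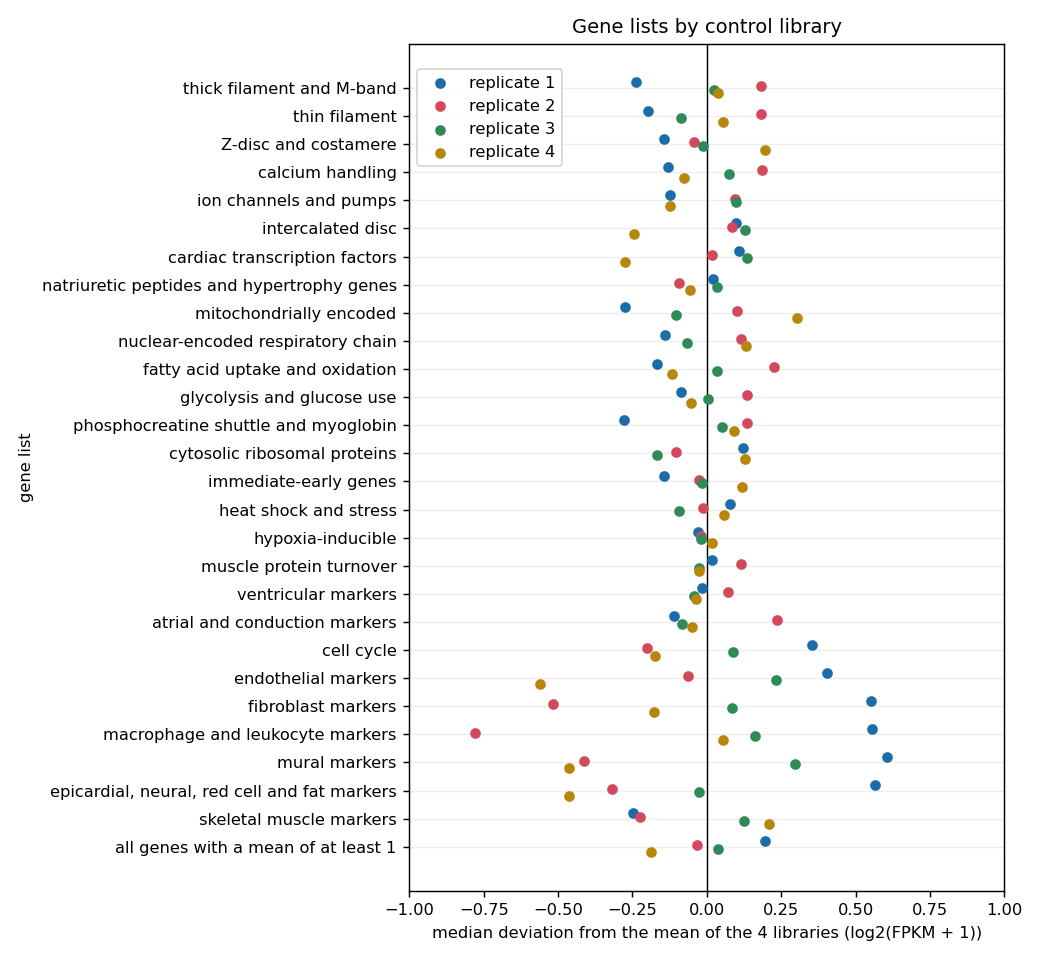
Median deviation of each gene list from its mean over the 4 control libraries (x axis, log2(FPKM + 1)), with 1 point per library and 1 line per list. Replicate 1 lies to the left for contractile and respiratory lists and to the right for endothelial, fibroblast, macrophage and mural markers, replicate 4 lies farthest left for endothelial markers and replicate 2 for macrophage and fibroblast markers. The bottom line gives all 9756 genes with a mean of at least 1 FPKM.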

How the data were processed

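Total RNA of the 4 control cultures was sequenced with a KAPA stranded kit on an Illumina NovaSeq. Per the labels and the study's methods, reads were trimmed with cutadapt and aligned to GRCm38 with HISAT2, abundances were estimated with StringTie, and the FPKM per gene and transcript that the authors deposited come from Ballgown. Versions of these tools and the annotation release were not found in the paper or labels. FPKM are not counts, and low values did not fall on steps of whole reads. The methods give a nominal read number for the sequencing service but not the reads obtained from each library. Precision therefore rests on the SD between libraries. Both tables had been filtered to a mean of at least 0.5 FPKM in 1 of the groups, so 415 genes lie below that in controls. Each holds 1 line with no entry, which is not reported here. For 10 gene symbols the table has more than 1 entry, and these were kept apart. Columns of the authors' own comparison hold fold changes and p values and were not used.

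Means, SDs, ranks, shares and correlations were computed with pandas 2.3.3 and numpy 2.4.6 in Python 3.11.15 from log2(FPKM + 1) where a log is named. Only the SD on the log2 scale was checked on simulated data with known spread, for genes with a mean of at least 20 FPKM. Spread was computed for genes with a mean of at least 1 FPKM, and main transcripts for genes with at least 10 FPKM. Exon structures came from GENCODE M21 (GRCm38), where 20165 transcripts matched by versioned identifier, all with the same coordinates. Named genes are the 25 most abundant, the leading members of 27 lists, all members of 23 families, the 5 markers and the 20 widest and 10 smallest SDs among genes of at least 20 FPKM. Some genes that this rule takes are not reported here. Other genes were named after their values were seen. The members and lists were chosen with earlier results of these data known. Alternatives were transcript sums, other scalings, pseudocounts and filters, and leaving out each library.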

Additional observations from a re-analysis of the deposited data

Results flagged for a closer look

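In 14 of 197 groups of 4 library values (7.11%), 1 library lay apart from the other three by Dixon's criterion, which chance alone meets in about 1 group in 20. The groups include the 20 genes chosen for their wide spread, to which Plin2, Gem, Hspb6, Kpna1 and Nppb belong, and genes of the same libraries are not independent, so the shares are not comparable. In replicate 1 the highest values were 78.3 FPKM for the lipid droplet protein Plin2, 35.5 FPKM for the smooth muscle gene Tagln, 13.4 FPKM for the tropomyosin Tpm2, 108 FPKM for Cox6a1 and 115 FPKM for Cox8a, the last pair being non-muscle isoforms of complex IV subunits. Replicate 1 was also apart by low values of the calcium channel regulator Gem (8.89 FPKM) and of Kpna1 (7.82 FPKM). Replicate 2 was apart by a high Hspb6 (316 FPKM) and by low values of Ckb (4.03 FPKM) and of Lsm12 (28.7 FPKM), the latter a gene of very small spread. In replicate 3 the heat shock and stress list had its lowest sum, 4809 FPKM. In replicate 4 Nppb (314 FPKM), Cryab (669 FPKM) and Cox7a2 (317 FPKM) were high. The cause of these values was not tested.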

How the results depend on the processing

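No paired analysis was possible because the values come from no test. With transcript sums the mitochondrial share was 27.0%, and the family shares were 98.2% for Myh6, 99.3% for Myl3, 99.6% for Tnnt2, 96.2% for Tpm1, 76.5% for Eno3, 67.7% for Ldhb and 44.9% for Slc2a4. Of 160 named genes 69 moved by more than their SD with transcript sums. Leaving out 1 of 4 libraries cannot move a mean by more than its SD, so it says nothing on the stability of means. With the table of each library rescaled to the same, larger total, 6800 genes reached 10 FPKM. Genes with an SD of at least 0.5 numbered 1463 with a pseudocount of 0.1, 321 among genes with a mean of at least 5 FPKM, and 427 to 974 without 1 library (974 without replicate 3). The lowest correlation was 0.957 with that pseudocount, 0.961 with that filter, 0.951 by ranks and 0.968 to 0.978 without 1 library. The highest over the lowest library was 1.44 to 2.23 for endothelial markers (1.44 without replicate 4), 1.75 to 7.12 for macrophage markers (1.75 without replicate 2) and 2.84 to 5.58 for the epicardial, neural, red cell and fat list (2.84 without replicate 1). The median main transcript share was 71.5% for genes of at least 1 FPKM and 89.1% for genes of at least 50 FPKM. The reads obtained per library are not given, only a nominal number for the sequencing service, so counting error cannot be given.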
